A study of Drosophila melanogaster with 2 samples.

Results

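miR-124 is the microRNA most closely tied to the nerve cell. Its 2 mature products, miR-124-3p and miR-124-5p, are described here in small RNA from heads of the fly Drosophila melanogaster. The members were taken by name, as the 2 rows called dme-miR-124-3p and dme-miR-124-5p in each deposited count table, of 233 known mature miRNAs listed for the control library and 228 for the ethanol library. Both were among the 168 known products with at least 100 reads over the 2 libraries, which are the products compared below.

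The flies were adult females of Canton-S, a laboratory wild-type strain, 3 to 5 days old, and about 180 flies were pooled for each sample. The control group breathed an ethanol-free air stream for 45 minutes. The ethanol group was held in air saturated with ethanol for 15 minutes, by which time every fly was sedated, and then in ethanol-free air for 30 minutes. There is 1 library per group, so no difference below has a replicate check, and library and treatment cannot be told apart. A head sample mixes brain, eye, muscle, fat body and cuticle, so fewer neurons and less miR-124 per neuron cannot be told apart.

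A microRNA is cut from a hairpin-shaped transcript into a short duplex, and as a rule one strand, here the 3p strand, is loaded into an Argonaute protein and lowers the output of messenger RNAs that pair with its seed, bases 2 to 8. miR-124-3p is nearly the same in insects and vertebrates and is abundant in the neurons of both. In the fly, mir-124 mutants have been described with altered neuroblast proliferation, dendrite shape, synaptic release and timing of daily locomotor activity.

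The sequences of both products are shown because the identity of the counted reads rests on them. They are copied from the deposited tables with U for T, and the capitals mark the seed.
miR-124-3p: uAAGGCACgcggugaaugccaag
miR-124-5p: gGUAUCCAcuguaggccuauaug
Each is 23 nt long. A messenger RNA site that pairs with the miR-124-3p seed reads GUGCCUU. None of the other 239 known mature sequences in the tables carried either seed at bases 2 to 8, and none shared bases 2 to 7. The closest other sequence was miR-306-5p at 9 edits from miR-124-3p and miR-965-5p at 8 edits from miR-124-5p, so neither product has a near-identical copy among them.

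The annotation holds a single mir-124 hairpin, on the plus strand of chromosome arm 2L. In the Ensembl annotation of BDGP6, which is a later build than the BDGP5 assembly used for the deposited tables, its 100 bases run from 17566370 to 17566469, matched by name. The 5p arm takes bases 23 to 45 of the hairpin and the 3p arm bases 57 to 79, with 11 bases between them. The hairpin lies within an exon, on the same strand, of both annotated transcripts of the long non-coding RNA CR45919, for which RefSeq gives pri-mir-124 as another name. Folding the mature strands onto each other gave a predicted duplex of 15 base pairs, with 3 bases of the 3p strand and 5 bases of the 5p strand left unpaired at their 3′ ends. The first 2 bases at the 5′ end of the 3p strand were also unpaired.

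miR-124-3p was one of the major miRNAs of the control head library and less abundant in the ethanol library. The control library held 111087 reads of miR-124-3p and the ethanol library 55203. Scaled to known miRNA reads in counts per 1000000 reads (CPM), control flies gave 8113 and ethanol flies 4205. Its share of known miRNA reads was 0.811% in control heads (95% exact binomial interval 0.807 to 0.816%) and 0.420% after ethanol (0.417 to 0.424%). The intervals, here and below, cover counting error only, because 1 library per group gives no spread between libraries. They also treat reads as independent, which reads amplified without molecular identifiers are not.

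miR-124-3p was 1.93-fold lower in the ethanol library (95% exact conditional interval 1.91 to 1.95), a log2 ratio of -0.95. At its control share, 106515 reads would have fallen to it in the ethanol library, which is 51312 more than were counted. The counting error is small beside this difference, but the spread between libraries of the same treatment was not measured.

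miR-124-5p, the strand that is mostly discarded, was also lower. Its reads numbered 507 in control heads and 264 after ethanol, or 37.0 and 20.1 CPM. The ethanol library was 1.84-fold lower (1.58 to 2.14), a log2 ratio of -0.88. This interval is wider than that of miR-124-3p because it rests on fewer reads, and it holds the miR-124-3p value.

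**Figure D1:**
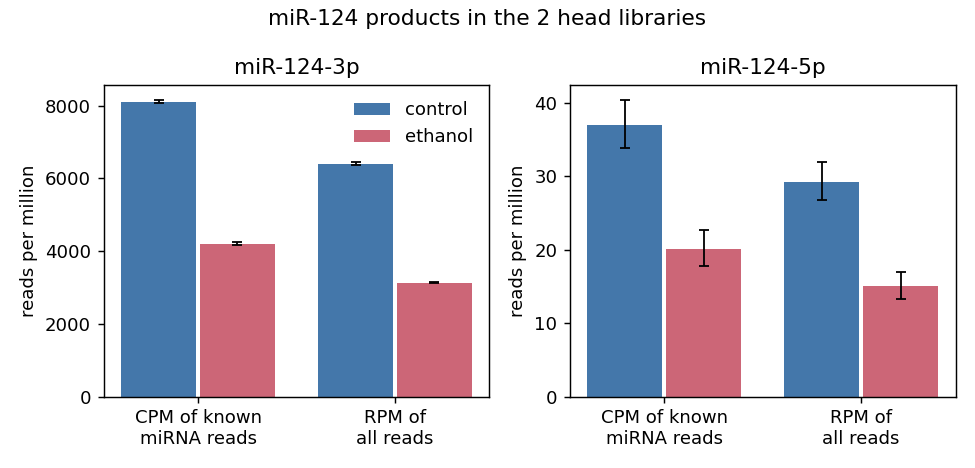
Levels of miR-124-3p (left) and miR-124-5p (right) in reads per 1000000 reads, scaled to known miRNA reads (CPM) or to all reads (RPM); each bar is 1 library and each line its 95% counting interval. The ethanol bar is lower than the control bar in all 4 pairs, from 8113 to 4205 CPM for miR-124-3p and from 37.0 to 20.1 CPM for miR-124-5p.

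The scaling between the libraries moved both values by a like amount. Known miRNAs took 79.0% of the 17337082 control reads and 74.6% of the 17600983 ethanol reads, so scaling to 1000000 of all reads (RPM) shifted every log2 ratio by -0.08. miR-124-3p stood at 6407 RPM without ethanol and 3136 RPM with it, 2.04-fold lower (2.02 to 2.06). miR-124-5p stood at 29.2 and 15.0 RPM, 1.95-fold lower (1.68 to 2.27). The authors' deposited table gives log2 ratios of -1.03 for miR-124-3p, with a p-value listed as 0, and -0.96 for miR-124-5p, with a p-value of 1.75e-19. That table marks miR-124-3p as different and leaves miR-124-5p unmarked, and its p-values compare 2 libraries, not 2 treatments.

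A threshold of 2-fold therefore fell between the scalings for miR-124-3p. In CPM, neither of the 2 miR-124 products was at least 2-fold lower, against 2 of all 168 products (1.19%). In RPM, miR-124-3p was, against 4 of 168 (2.38%). At 1.5-fold both products were lower in CPM, against 18 of 168 (10.7%), and in RPM, against 24 of 168 (14.3%). Over 6 scalings the ratio of miR-124-3p lay between 0.476 and 0.518 and that of miR-124-5p between 0.499 and 0.543. Relative to the median of all compared products, which any change of scaling moves equally, miR-124-3p lay 0.93 lower and miR-124-5p 0.86 lower on the log2 scale.

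**Figure D2:**
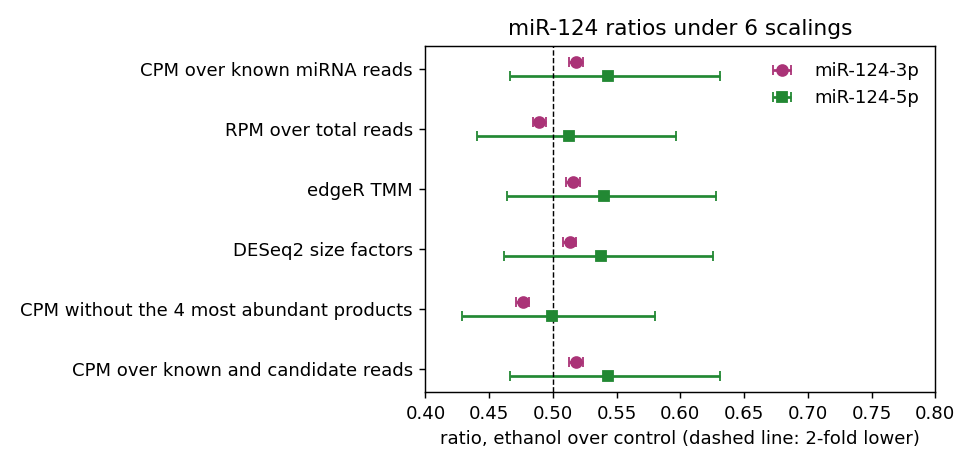
Ratio of ethanol to control for both miR-124 products (horizontal axis) under 6 scalings (vertical axis), with 95% counting intervals; the dashed line marks a ratio of 0.5. The miR-124-3p value crosses the line under RPM (0.489) and without the 4 most abundant products (0.476), and lies above it under the other scalings.

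Among all compared products the 2 arms of mir-124 were neighbours near the low end. The log2 ratios of the 168 products had a median of -0.020 and quartiles at -0.28 and 0.32, and 86 products lay below a ratio of 1. Counted from the lowest ratio, miR-124-3p was 4 and miR-124-5p was 5, so that 164 and 163 products had higher ratios. The miR-124-3p value rested on far more reads than most at that end. Of 49 products with at least 10000 reads in either library, 1 had a lower ratio than miR-124-3p, namely miR-277-5p.

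**Figure D3:**
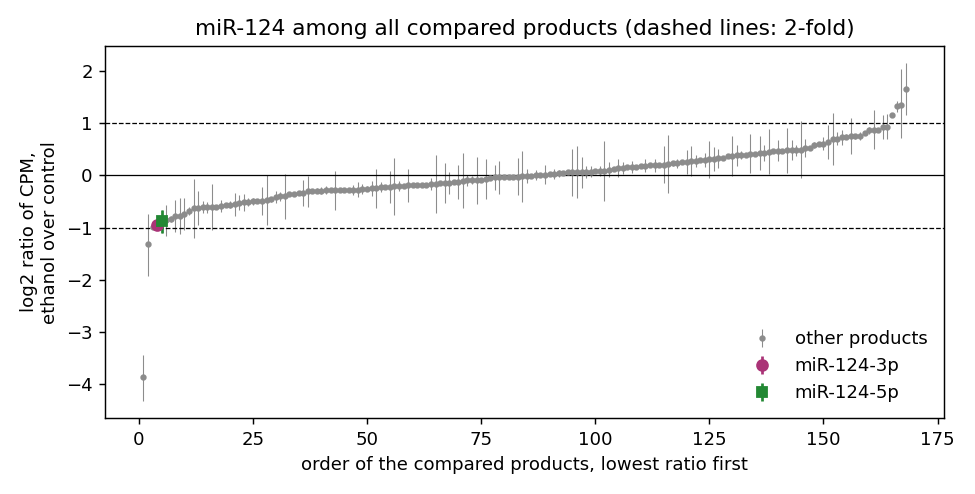
Log2 ratio of CPM, ethanol over control, for the 168 compared products in order from the lowest, with 95% counting intervals; dashed lines mark 2-fold either way. miR-124-3p (circle) and miR-124-5p (square) lie next to each other at places 4 and 5, at -0.95 and -0.88.

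The order of abundance shifted with it. Counted from the most abundant product, miR-124-3p stood at place 10 in control heads and at place 17 after ethanol. Its nearest neighbours in the control moved less. Just above it, miR-275-3p went from 188928 control reads to 154860 ethanol reads (ratio 0.855, 0.849 to 0.861) and miR-8-5p had 147248 and 158027 (1.12, 1.11 to 1.13). Just below it, miR-10-3p had 93321 and 72701 reads (0.812, 0.805 to 0.820) and miR-263a-5p had 90880 and 119792 (1.37, 1.36 to 1.39). None of these intervals reached the miR-124-3p ratio of 0.518. Among the other 19 of the 20 most abundant control products, log2 ratios ran from -0.60, for let-7-5p, to 0.87, and 11 were below 1. The largest drop in place among those 19 was 4, but miR-252-5p rose from place 20 to place 12, a larger move than that of miR-124-3p.

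Reads of one product per read of another do not depend on the scaling. For each miR-124-3p read, control heads gave 38.5 reads of miR-1-3p, the muscle miRNA, and ethanol heads 71.5. For miR-34-5p, which is linked to ageing of the brain, the numbers were 12.7 and 19.2. For let-7-5p, which times developmental transitions, they were 15.2 and 19.4. For miR-210-3p, a miRNA of the eye and brain, they were 0.540 and 1.09. miR-124-3p was thus lower against each of these partners, by a factor of 1.27 against let-7-5p up to 2.01 against miR-210-3p. This follows from the ratios above, since 164 of the 168 products had a higher ratio, and is not further support.

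The 2 arms kept nearly the same proportion to each other. In the control there were 219 reads of miR-124-3p for each read of miR-124-5p, and in the ethanol library 209. The 5p share of mir-124 reads was 0.454% in control heads (exact interval 0.416 to 0.496%) and 0.476% after ethanol (0.420 to 0.537%). The odds of 3p over 5p changed by a factor of 0.954 (exact conditional interval 0.821 to 1.11), which includes no change. The bounds leave room for a shift of up to 1.11-fold towards 3p, or a factor of 0.821 towards 5p.

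Hairpins differed widely in this respect. Both arms could be compared for 61 hairpins, of which 18 had both arms lower, 13 had both higher, and 30 had 1 arm lower and the other higher. These counts use the side of 1 in CPM with no minimum change, so they depend on the scaling. An arm close to 1 can change side, as miR-998-3p did, with a log2 ratio of 0.0008 in CPM and -0.08 in RPM. The median size of the change in the arm ratio was 0.34 on the log2 scale, and that of mir-124 was 0.07, place 7 from the smallest. Next to it in this order stood mir-986 (0.05) and mir-307a (0.06) below, and mir-14 (0.07) and mir-210 (0.08) above. Counting error leaves the exact place of mir-124 uncertain, because the interval of its odds factor runs from 0.821 to 1.11. mir-124 was the 1 hairpin of 61 (1.64%) with both arms at least 1.5-fold lower in CPM. In RPM there were 2 such hairpins (3.28%), mir-124 and mir-986, a scaling added after the CPM count was seen. The arms of mir-986 were 1.49-fold and 1.54-fold lower in CPM and 1.57-fold and 1.63-fold lower in RPM.

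**Figure D4:**
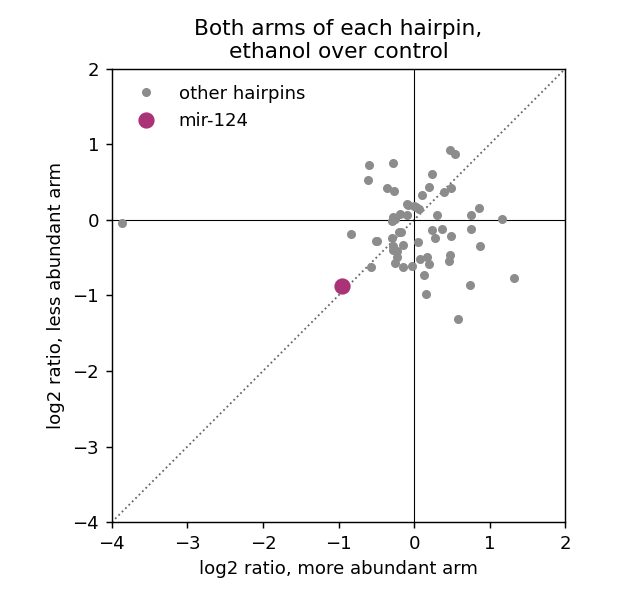
Log2 ratio of CPM, ethanol over control, of the less abundant arm (vertical axis) against the more abundant arm (horizontal axis) for 61 hairpins; on the dotted diagonal both arms have the same ratio. mir-124 lies close to the diagonal at -0.95 and -0.88, while 30 of the 61 hairpins have arms of opposite sign. The signs are those in CPM, with no minimum change.

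The products with log2 ratios most like those of miR-124 came from 3 other hairpins. Likeness here is the difference in log2 ratio over 2 libraries, a single number per product. miR-277-5p went from 22553 control reads to 10907 ethanol reads, 1.98-fold lower (1.94 to 2.03), and differed from miR-124-3p by 0.039 on the log2 scale. miR-1000-3p had 282 and 149 reads, 1.81-fold lower (1.48 to 2.23), and differed from miR-124-5p by 0.021 on that scale. miR-929-3p had 6075 and 3258 reads, 1.79-fold lower (1.71 to 1.87), and differed from it by 0.043. Their sequences are given to show that these products have seeds unlike each other and unlike miR-124, again with the seed in capitals.
miR-277-5p: cGUGUCAGgagugcauuugca
miR-1000-3p: cUGCUGGGucggggcauuaaca
miR-929-3p: cUCCCUAAcggagucagauug
All 3 come from hairpins on chromosome arm 3R, whereas mir-124 is on 2L. The likeness is one of single arms. The other arms of these hairpins had log2 ratios of 0.15 (miR-277-3p), 0.74 (miR-1000-5p) and -0.19 (miR-929-5p).

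Products of like base composition can be set beside miR-124. miR-124-3p holds 8 guanines in 23 bases (34.8%) and miR-124-5p holds 6 (26.1%). Of the 33 other compared products within 5 percentage points of miR-124-3p, 27 had a ratio below 1, their median was -0.25 on the log2 scale, and 1 was lower than miR-124-3p. Of the 71 others within 5 percentage points of miR-124-5p, 43 had a ratio below 1, the median was -0.10, and 1 was lower than miR-124-5p. Over all 168 products, 86 were below 1 (51.2%) and the median was -0.020. The part of base composition in the miR-124 values was not tested.

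Other neural miRNAs did not share one direction. From a list of 32 other hairpins with roles in fly neurons, brain or sense organs, 53 products were compared. Of these, 25 had a ratio below 1 (47.2%, against 51.2% of all compared products) and 28 above, with a median log2 ratio of 0.02 in CPM that was -0.06 in RPM, against -0.020 and -0.10 over all products. None was 2-fold lower or higher, where 1.19% of all products were lower and 2.38% higher by that much. At least 1.5-fold lower were 4 (7.55%, against 10.7% of all) and at least 1.5-fold higher 6 (11.3%, against 12.5%), shares near those of all products. None of the 53 had a ratio below that of miR-124-3p.

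Taking the more abundant arm of each hairpin left 30 products, 15 on each side of 1. The lowest were miR-929-3p, given above, miR-282-5p (1.53-fold lower, 1.43 to 1.64, from 2204 control and 1382 ethanol reads) and let-7-5p (1.52-fold lower). miR-981-3p was 1.42-fold lower (1.34 to 1.51), and miR-34-5p 1.28-fold lower. A middle group lay close to 1. For miR-279-3p, which acts in olfactory neurons and in daily rhythms, the ratio was 0.979 (0.966 to 0.993). For miR-284-5p it was 0.998 (0.973 to 1.02), and for miR-210-3p 1.04 (1.03 to 1.05).

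The other end of the list held products more abundant in the ethanol library. The ratio of miR-7-5p, which acts in photoreceptor differentiation, was 1.15 (1.11 to 1.18), and that of miR-9a-5p, which limits sense organ precursors, was 1.17 (1.14 to 1.21). That of miR-125-5p, from the transcript of let-7, was 1.39 (1.37 to 1.42). miR-1000-5p, which lowers the vesicular glutamate transporter, stood at 1.67 (1.62 to 1.73), and miR-927-5p at 1.68 (1.63 to 1.74). The highest were miR-276b-3p, at 1.74 (1.72 to 1.77), and miR-276a-3p, at 1.83 (1.82 to 1.835). These 2 are near-identical in sequence, so the division of reads between them is uncertain.

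**Figure D5:**
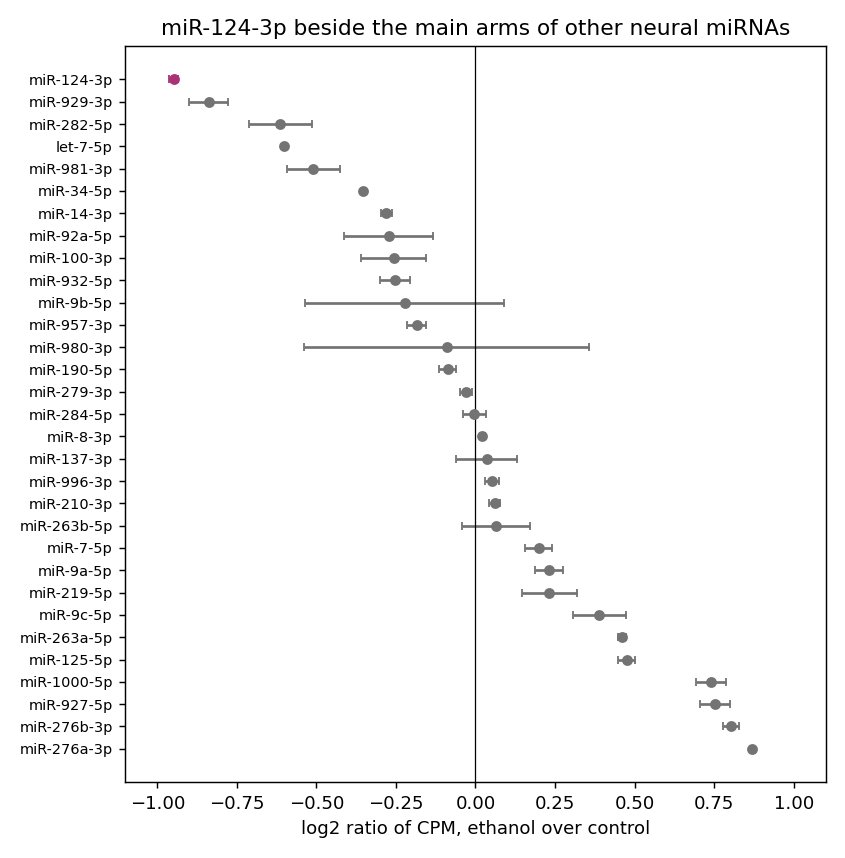
Log2 ratio of CPM, ethanol over control, with 95% counting intervals, for miR-124-3p and the more abundant arm of 30 other neural hairpins. miR-124-3p lies at the low end at -0.95, and the others run from miR-929-3p at -0.84 to miR-276a-3p at 0.87.

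The summed levels of markers of tissues other than neurons differed less between the libraries than miR-124-3p did. So did the sum of the neural list above, which leaves out miR-124. It was 323869 CPM in control heads and 285851 after ethanol, a ratio of 0.883. Most of that sum came from let-7-5p (123536 and 81419 CPM) and miR-34-5p (102993 and 80588 CPM), both lower after ethanol. The ratio of the sum is therefore not that of the list as a whole, in which 25 products were below 1 and 28 above. The 4 listed muscle products (miR-1 and miR-133, both arms) summed to 313766 CPM in control heads and 301679 after ethanol, a ratio of 0.961. miR-1-3p alone made up 99.7% of that sum in both libraries, so the ratio is that of 1 product. The others compared were lower than it, miR-133-3p with 14293 and 11266 reads, a log2 ratio of -0.28, and miR-133-5p with 111 and 81 reads, a log2 ratio of -0.39. The 3 gut products of miR-281 summed to 134 and 140 CPM. The 8 early embryo products summed to 184 and 144 CPM and the 5 gonad products to 7.67 and 11.4 CPM, a ratio of 1.49. miR-5-5p alone held 2445 of the 2520 control reads and 1779 of the 1888 ethanol reads of the early embryo list. The gonad sums rest on 105 and 150 reads. The posterior body list was near the listing limit of 5 reads, with 14 and 12 reads of miR-iab-4-5p and no listed product of miR-iab-8. The RNA integrity number was 6.80 for the control and 6.40 for the ethanol RNA. The part of tissue make-up and of RNA quality in the miR-124 values was not tested.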

How the data were processed

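Small RNA of 18 to 30 nt from 1 control and 1 ethanol library was sequenced, per the labels' protocols. The authors deposited raw read counts per mature miRNA, listed from 5 reads up, and RPM over a total read number; which reads that total counts is not stated. Their second table holds, per the file headers, a log2 ratio of RPM and a p-value from an unstated test. The submitters' processing notes name BDGP5 as the build; no aligner or counter is given in the sources used here. RPM recomputed from the counts was within 4.9e-05 of the deposited values.

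For each of 6 names listed more than once the largest count was kept, and the identical miR-276a-5p and miR-276b-5p were used once. Counts were scaled to CPM over 13692046 control and 13128478 ethanol reads of known miRNAs. Ratios carry exact conditional binomial 95% intervals, and these were tested on simulated counts. Those counts were drawn independently, as the intervals assume, so the test cannot cover amplified reads or the spread between libraries. The arm ratio carries an exact conditional odds ratio interval, which was not tested in that way. With 1 library per group no p-value was computed; edgeR 4.0.16 TMM and DESeq2 1.42.0 size factors served as alternative scalings (R 4.3.3). Python 3.11.15, SciPy 1.17.1 and, for the duplex of the 2 arms, RNAduplex of ViennaRNA 2.7.2 were used. The chromosome came from Ensembl release 115.

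Named besides the 2 members were the 4 products nearest to each in log2 ratio, the 2 neighbours on each side of miR-124-3p in abundance and of mir-124 in arm change, the main arms of the neural list, and muscle markers. Of the neural main arms, those at the ends and middle of the order are given in full. The members, lists, thresholds and rules were chosen with earlier results of these data known.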

Additional observations from a re-analysis of the deposited data

How the results depend on the processing

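Both miR-124 products were lower in the ethanol library under all 7 settings tried (6 scalings and summing repeated names). Each setting shifts the log2 ratios of both products by the same small amount, so this agreement in direction is not independent support. The miR-124-3p ratio of 0.518 moved beyond its counting interval to 0.489 under RPM and to 0.476 when the 4 most abundant products were left out of the scaling, past 2-fold in both; under that last scaling, which lowered the median log2 ratio of all products from -0.020 to -0.14, miR-124-5p was also past 2-fold, at 0.499. Products at least 2-fold lower numbered 2 in CPM, 4 in RPM, 5 without the 4 most abundant products, 5 with a minimum of 10 reads or with none, and 0 of 107 with a minimum of 1000 reads. Products at least 2-fold higher numbered 4, but 7 with a minimum of 10 reads or with none and 2 with 1000. Products at least 1.5-fold lower numbered 18, but 28 without the 4 most abundant products and 8 with a minimum of 1000 reads. Hairpins with both arms at least 1.5-fold lower numbered 1 in CPM and 2 in RPM, a setting added after the data were seen. The neural list's median log2 ratio of 0.022 was 0.0094 for the more abundant arms and -0.061 in RPM. The arm ratio was 0.954 and, with 0.5 added to each arm, 0.953. No paired analysis was possible because each group has 1 library, and for the same reason no library could be left out. Depth limits miR-124-5p, with 264 to 507 reads per library, more than miR-124-3p.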
